A study of Homo sapiens with 4 samples.

Results

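The genes described here were 10 aldo-keto reductases and aldehyde dehydrogenases, taken by gene name from a table of 21530 named rows above 0: AKR1A1, AKR1B1, AKR1B10, AKR1C1, AKR1C2, AKR1C3, ALDH1A1, ALDH1A3, ALDH1B1 and ALDH3A2. Adjacent rows of that table with identical values were joined into 1 locus, which left 18650 loci, and the 10 genes fell on 9 of them because AKR1C1 and AKR1C3 carried the same values. The genes were chosen with their values in these libraries known, so their levels and changes are a description and carry no test. The RNA came from 2 human cell lines: HT-29, established from a colorectal adenocarcinoma, and NCM460, which the study used as normal colon cells. Each line was cultured untreated (control) or treated with 100 μg/mL sturgeon chondroitin sulfate (SCS), a sulfated polysaccharide from fish cartilage, for 24 h. Each of the 4 conditions had 1 library, so a difference between conditions had no replicate check, and all intervals below cover counting error only. Both lines were grown in medium with fetal bovine serum, of which the study's methods give a larger share for NCM460, so line and medium cannot be told apart, and each stands for 1 cell line and not for a tissue.

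Aldo-keto reductases use NADPH to turn aldehydes and ketones into alcohols. The AKR1B enzymes reduce glucose, lipid aldehydes and retinal, and the AKR1C enzymes reduce steroids, prostaglandins and lipid aldehydes. Aldehyde dehydrogenases use NAD or NADP to oxidise aldehydes to acids. Those of the ALDH1A group make retinoic acid from retinal, ALDH1B1 is a mitochondrial enzyme that clears acetaldehyde, and ALDH3A2 oxidises fatty aldehydes in the endoplasmic reticulum. In colon tissue ALDH1A1 and ALDH1B1 are known as stem cell and tumour markers, and AKR1B10 and the AKR1C genes are known targets of NRF2, the transcription factor that answers electrophiles and oxidants.

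The AKR1C genes lie side by side on chromosome 10, and the sequences before their starts are shown because both of their loci were higher in SCS-treated HT-29 cells than in the control. The windows were taken from RefSeq (GRCh38.p14), in which 9 of the 10 genes, all but AKR1B10, had 12 windows of 250 bases before a transcription start. All 4 AKR1C windows held the run ATTGGTTAACCA, printed in capitals, which began between 73 and 86 bases before the start. That run was picked as the longest one common to these 4 windows, so its rarity is no separate support. It was present on either strand in 5 of 35116 windows of all genes (0.0142%), and the 4 AKR1C windows are among those 5. AKR1C1 (chr10:4963165-4963414, plus strand), AKR1C2 (chr10:5003858-5004107, minus strand) and AKR1C3 (chr10:5048531-5048780 and chr10:5094164-5094413, plus strand) read, 5′ to 3′:
AKR1C1: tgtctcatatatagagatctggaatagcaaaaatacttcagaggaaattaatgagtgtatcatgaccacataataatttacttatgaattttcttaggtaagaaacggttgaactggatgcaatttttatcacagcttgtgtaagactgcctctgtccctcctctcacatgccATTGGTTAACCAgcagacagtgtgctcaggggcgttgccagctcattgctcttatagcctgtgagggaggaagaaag
AKR1C2: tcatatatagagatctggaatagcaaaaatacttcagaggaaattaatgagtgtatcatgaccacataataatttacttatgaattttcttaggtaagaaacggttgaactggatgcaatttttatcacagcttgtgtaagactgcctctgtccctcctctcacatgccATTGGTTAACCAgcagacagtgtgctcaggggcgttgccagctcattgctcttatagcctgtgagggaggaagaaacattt
AKR1C3, upstream start: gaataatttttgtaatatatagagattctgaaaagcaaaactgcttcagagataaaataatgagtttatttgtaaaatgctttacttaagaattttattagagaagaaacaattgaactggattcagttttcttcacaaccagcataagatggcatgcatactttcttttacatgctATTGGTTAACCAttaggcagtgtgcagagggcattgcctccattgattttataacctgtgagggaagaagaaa
AKR1C3, downstream start: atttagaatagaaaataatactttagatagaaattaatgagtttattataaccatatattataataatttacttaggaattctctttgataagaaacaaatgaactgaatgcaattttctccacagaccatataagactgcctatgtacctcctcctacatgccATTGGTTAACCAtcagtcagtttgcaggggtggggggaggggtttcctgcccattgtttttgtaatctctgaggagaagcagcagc

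Over 254 aligned columns the AKR1C1 and AKR1C2 windows were 96.5% identical, and the other pairs were 66.8% to 72.4% identical. In the deposited table the 3 genes also overlapped: AKR1C1 was listed at chr10:4963253-5107522, AKR1C3 at chr10:5035354-5107686 and AKR1C2 at chr10:4922564-5135226. AKR1C1 and AKR1C3 shared their row values with a pseudogene, RP11-499O7.4, and AKR1C2 shared its own with AKR1C5P. How the reads of these near-identical genes were divided is therefore uncertain, and the values below belong to the loci AKR1C1/AKR1C3 and AKR1C2 and not to single genes.

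The window of ALDH1A1 (chr9:72953054-72953303, minus strand) is shown beside them because this gene gave fewer fragments in the treated HT-29 cells. Its capitals mark CCAAT, which began 74 bases before the start.
ALDH1A1: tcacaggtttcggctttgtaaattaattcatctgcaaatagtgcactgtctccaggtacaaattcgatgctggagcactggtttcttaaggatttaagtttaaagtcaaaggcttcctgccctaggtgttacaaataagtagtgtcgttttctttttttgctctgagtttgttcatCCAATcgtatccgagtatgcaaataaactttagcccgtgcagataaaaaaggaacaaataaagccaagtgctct

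CCAAT was found on either strand in 9 of the 12 windows, against 32.0% of all 35116 windows, and in the AKR1C windows it is the reverse complement of the first 5 letters of the shared run. The AKR1C windows are related sequences, and AKR1B1, AKR1C3 and ALDH3A2 gave several windows. The 12 windows are thus not independent, and nothing is read from that share. The letters TGACNNNGC, the core of the antioxidant response element, were searched on both strands and were in 0 of the 12 windows, against 10.9% of all windows. Such a match describes letters within 250 bases only.

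The libraries held between 1156568 and 1654764 fragments. Mitochondrial transcripts took 35.8% of them in the HT-29 control and 13.8% after SCS, against 62.3% in the NCM460 control and 46.3% after SCS, and between 507692 and 1383424 fragments were left from nuclear genes. Levels are given as CPM, fragments scaled to a common library size with TMM factors, and 3 fragments stood for 1.47, 1.25, 3.85 and 2.77 CPM in that order. Of 12 colon epithelial markers, 9 and 8 had a fragment in the HT-29 libraries and 6 in each NCM460 library. CDX1 and GPA33 were at 0 in all 4 libraries, CDX2 was at 0 in HT-29 but had 14 and 12 fragments in NCM460, and KRT20, VIL1 and LGALS4 were at 0 in NCM460. The summed level of the 12 markers was 6526 and 3535 CPM in HT-29 and 4346 and 2659 CPM in NCM460. The 8 mesenchymal markers summed to 3.75 to 37.2 CPM with COL1A2, COL3A1, LUM and DCN at 0 throughout. The leukocyte markers PTPRC, CD3E and CD14 were at 0 throughout, whereas LYZ reached 295 and 146 CPM in HT-29, and the 3 endothelial markers summed to at most 1.85 CPM. The part of these markers and of the mitochondrial share in the values below was not tested.

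The libraries were first compared by which of the members gave a fragment, in counts that are not scaled to depth. The 9 loci together took 778 and 1520 fragments in HT-29, without and with SCS, and 197 and 314 in NCM460. A fragment was found for 8, 9, 6 and 6 of the loci in the same order. Of all 18650 loci, 14398, 15202, 12742 and 14209 had an FPKM above 0 in these libraries. The part of depth in these counts was not tested. In such bulk RNA, fewer cells carrying a transcript and less of it per cell cannot be told apart. The aldo-keto reductase members summed to 127 CPM in the HT-29 control and 537 CPM with SCS, of which the AKR1C1/AKR1C3 locus held 61.4% and 87.4% of the fragments. The aldehyde dehydrogenase members moved the other way in HT-29, from 254 to 95.7 CPM, and ALDH1A1 held 54.7% and then 23.5% of their fragments. In NCM460 the aldo-keto reductases summed to 101 and 88.8 CPM and the aldehyde dehydrogenases to 152 and 202 CPM.

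**Figure D1:**
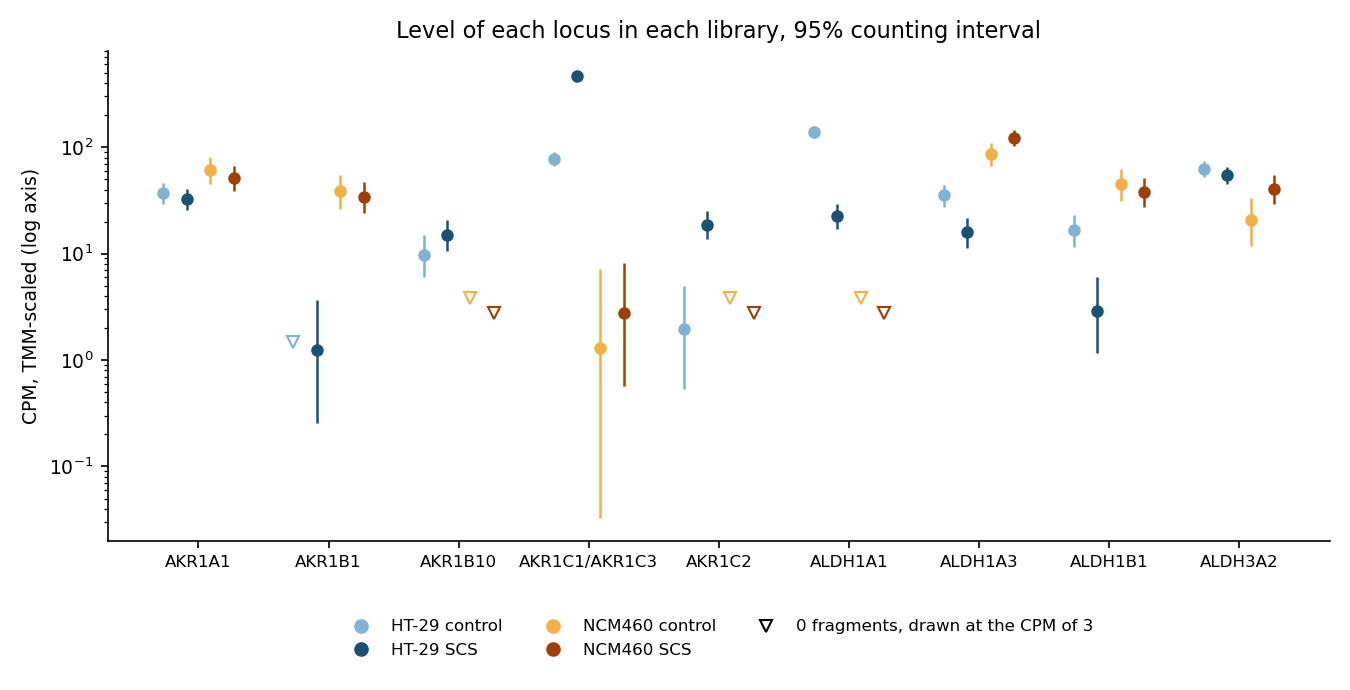
CPM of each of the 9 loci (log axis) in the 4 libraries, with 95% Poisson counting intervals. Open triangles mark a library with 0 fragments, drawn at the CPM of 3 fragments. AKR1C1/AKR1C3 reached 469 CPM in HT-29 with SCS, whereas AKR1B10, AKR1C2 and ALDH1A1 had 0 fragments in both NCM460 libraries.

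In HT-29 the SCS-treated library was set against the control to ask how these enzymes stood after the treatment. A locus was called when it differed by more than 1.5-fold and its 95% counting interval excluded no change. By this rule 2 of the 8 loci whose mean reached 1 CPM were called higher and 3 were called lower. Over all 12168 loci compared, 16.8% were called higher and 14.8% lower, and since the members were chosen on this contrast nothing is read from their counts. The median log2 fold change was -0.20 over the 8 loci and 0.07 over all loci.

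AKR1C1/AKR1C3 gave 159 fragments in the HT-29 control and 1128 with SCS, or 77.7 CPM (95% counting interval 66.1 to 90.8) and 469 CPM (442 to 498). AKR1C1 and AKR1C3 encode reductases that act on progesterone, androgens and prostaglandin D. The treated library stood far above the control, with intervals that did not overlap. The log2 fold change was 2.58 (2.35 to 2.84), a 5.96-fold difference, and 63 loci of the 12168 had a larger one. Total counts only gave 2.85, thinning to equal depth 2.32 and the deposited FPKM 2.18, all outside that interval but called higher. AKR1C2, which inactivates dihydrotestosterone, gave 4 and 45 fragments, or 1.96 CPM (0.533 to 5.01) and 18.7 CPM (13.7 to 25.1). Its log2 fold change of 2.63 (1.80 to 5.20) was of similar size, but rested on 4 fragments in the control and was less precise. These values include a prior count of 2, which draws a change at few fragments towards no change. With a prior count of 0.5 AKR1C2 stood at 3.07 and AKR1C1/AKR1C3 at 2.59, and the deposited FPKM gave 2.89 for AKR1C2. The similar size thus depended on the prior count. Reads that could belong to either locus were not separated here, and their part in these values was not tested.

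The other aldo-keto reductases among the members were not called in HT-29. AKR1B10, which reduces retinal and lipid aldehydes, gave 20 and 36 fragments, or 9.78 CPM (5.97 to 15.1) and 15.0 CPM (10.5 to 20.7). Its intervals overlapped, and the log2 fold change of 0.56 (-0.21 to 1.48) did not pass the rule, though it was called with total counts only (0.82) and in the deposited FPKM (0.60). AKR1A1, the aldehyde reductase that also reduces glucuronate, gave 76 and 78 fragments, or 37.1 and 32.5 CPM. Its log2 fold change was -0.19 (-0.67 to 0.28), so a fall of 1.5-fold lay within the counting error. AKR1B1, the aldose reductase of the polyol pathway, gave 0 and 3 fragments, and no fold is given at that depth.

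ALDH1A1 gave 284 fragments in the HT-29 control and 54 with SCS, or 139 CPM (123 to 156) and 22.5 CPM (16.9 to 29.3). This retinal dehydrogenase, the highest member per length in the control, was far lower in the treated library with no overlap of the intervals. The log2 fold change was -2.56 (-3.07 to -2.20), and 66 loci had a lower one. The deposited FPKM gave -3.27. ALDH1B1 gave 34 and 7 fragments, or 16.6 CPM (11.5 to 23.2) and 2.91 CPM (1.17 to 6.0), a log2 fold change of -2.10 (-3.93 to -1.32). Its call was lost when the nuclear fragments of the libraries were thinned to equal depth, where the value was -1.28. The deposited FPKM of ALDH1B1, 4.34 and 0.675, gave a log2 fold change of -2.52. The study itself listed a smaller fall of ALDH1B1 in HT-29, with FPKM values that differ from the deposited ones. The reason for that difference was not tested. ALDH1A3, a second retinal dehydrogenase, gave 72 and 38 fragments, or 35.2 CPM (27.5 to 44.3) and 15.8 CPM (11.2 to 21.7). It was called lower at a log2 fold change of -1.09 (-1.76 to -0.57), whereas the deposited FPKM gave -2.71. Its row shared values with 4 noncoding neighbours, and an antisense gene, RP11-66B24.4, overlaps it on the opposite strand with 35 and 18 fragments of its own. The strand setting of the counting is not given in the sources used here.

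ALDH3A2, the fatty aldehyde dehydrogenase, was the aldehyde dehydrogenase among the members that was not called in HT-29. It gave 129 and 131 fragments, or 63.0 CPM (52.6 to 74.9) and 54.5 CPM (45.6 to 64.7), with overlapping intervals. Its log2 fold change was -0.21 (-0.57 to 0.15), an interval that ended just short of 1.5-fold lower. After a trend on transcript GC content was subtracted it was -0.31 (-0.68 to 0.04). That interval passed 1.5-fold, so a fall of that size was not excluded by counting error.

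In NCM460 the same comparison rested on fewer fragments. Of 6 loci whose mean reached 1 CPM, 1 was called higher and 0 lower, beside 15.4% higher and 13.8% lower of all 12657 loci compared. The median log2 fold change was 0.17 over the 6 loci and 0.03 over all loci. Without AKR1C1/AKR1C3, which had 1 and 3 fragments, the median of the other 5 was -0.17. In this line the log2 fold changes of all loci fell with the GC content of their transcripts (Spearman rho -0.62 across loci, which are not replicates, against -0.12 in HT-29), so values in this line are also given after subtracting a lowess trend on GC. Median transcript GC was 43.1% to 45.2% for ALDH1A1, AKR1C1/AKR1C3, AKR1B10, ALDH3A2 and AKR1C2, and 54.3% to 57.5% for AKR1A1, ALDH1A3, AKR1B1 and ALDH1B1.

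ALDH3A2 was the member called in NCM460, with 16 fragments in the control and 44 with SCS, or 20.5 CPM (11.7 to 33.4) and 40.7 CPM (29.6 to 54.6). Those intervals overlapped slightly, while the interval of the log2 fold change, 0.94 (0.13 to 1.91), did not reach 0. After the GC trend was subtracted the value was 0.25 (-0.57 to 1.21) and the call was lost. ALDH1A3 gave 67 and 133 fragments, or 86.0 CPM (66.7 to 109) and 123 CPM (103 to 146). Its log2 fold change of 0.51 (0.08 to 0.96) was under the 1.5-fold limit, became 0.94 (0.51 to 1.39) and was called after the GC trend was subtracted, and had the opposite sign in the deposited FPKM, at -0.30. The direction for ALDH1A3 in NCM460 thus depended on the unit.

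The remaining members were not called in NCM460. AKR1A1 gave 48 and 56 fragments, or 61.6 and 51.8 CPM, a log2 fold change of -0.25 (-0.83 to 0.34). AKR1B1 gave 30 and 37 fragments, or 38.5 and 34.2 CPM, a log2 fold change of -0.17 (-0.91 to 0.57). ALDH1B1 gave 35 and 41 fragments, or 44.9 and 37.9 CPM, a log2 fold change of -0.24 (-0.93 to 0.45). All 3 turned positive after the GC trend was subtracted, at 0.11, 0.27 and 0.31, and none was called there. In the deposited FPKM AKR1A1 was past 1.5-fold lower, at -0.69. AKR1B10, AKR1C2 and ALDH1A1 had 0 fragments in both NCM460 libraries, where the floor of 3 fragments stands for 3.85 CPM in the control and 2.77 CPM with SCS, and AKR1C1/AKR1C3 stayed at or under 3 fragments. For these 4 loci a change with SCS was not detectable at this depth.

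**Figure D2:**
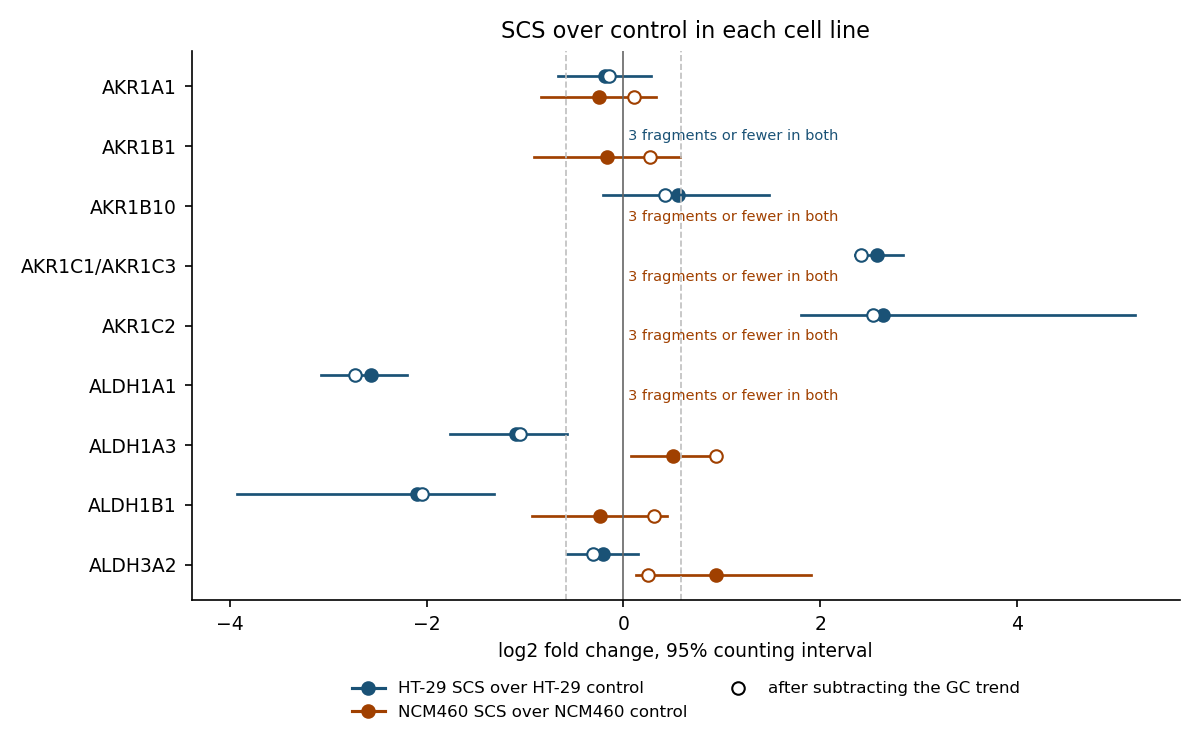
Log2 fold change of SCS over control for each locus in HT-29 (blue) and NCM460 (brown), with 95% counting intervals. Open points are values after the GC trend was subtracted, and dashed lines mark 1.5-fold. AKR1C1/AKR1C3 (2.58) and AKR1C2 (2.63) lay above the limit in HT-29 and ALDH1A1 (-2.56), ALDH1B1 (-2.10) and ALDH1A3 (-1.09) below it.

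For the 4 loci with over 3 fragments in each of the 4 libraries the change with SCS was set side by side, as HT-29 minus NCM460. The difference was -1.60 on the log2 scale for ALDH1A3 (-2.42 to -0.92), and -1.99 (-2.81 to -1.30) after the GC trends were subtracted. For ALDH1B1 it was -1.86 (-3.84 to -0.83), and -2.35 (-4.33 to -1.33) with GC. For ALDH3A2 it was -1.15 (-2.19 to -0.25), and -0.56 (-1.60 to 0.34) with GC, where the interval held 0. AKR1A1 differed by 0.06 (-0.71 to 0.82), and by -0.26 (-1.03 to 0.50) with GC. Both intervals held 0, and a difference of up to 0.82, or down to -1.03 with GC, lay within the counting error. With 1 library per condition these intervals do not say how far repeat cultures would differ.

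The order of the members within a library was taken from the deposited FPKM, which are per transcript length. In the HT-29 control it ran from ALDH1A1 at 75.2 FPKM (66.7 to 84.5) through AKR1C1/AKR1C3 at 42.2, ALDH1A3 at 31.6, AKR1A1 at 28.8 and ALDH3A2 at 18.0 to ALDH1B1 at 4.34, AKR1B10 at 4.32 and AKR1C2 at 1.21. AKR1C1/AKR1C3 and ALDH1A3 overlapped in their counting intervals, as did ALDH1A3 and AKR1A1, and each neighbouring pair of the 3 lowest. ALDH1A1 stood at rank 445 of 14398 loci with an FPKM above 0. With SCS, AKR1C1/AKR1C3 led the order at 191 FPKM (180 to 202), rank 152 of 15202 against rank 903 in the control. AKR1A1 at 26.6 came next, above ALDH3A2 at 13.7, AKR1C2 at 9.59, ALDH1A1 at 7.74, AKR1B10 at 6.61 and ALDH1A3 at 4.73, neighbours in the order whose intervals overlapped. ALDH1A1 stood at rank 4635, and ALDH1B1 at 0.675 and AKR1B1 at 0.580 were lowest.

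In both NCM460 libraries ALDH1A3 led, at 78.6 FPKM (60.9 to 99.8) in the control and 63.7 FPKM (53.4 to 75.5) with SCS. AKR1A1 followed at 62.8 and 38.9 FPKM and did not differ from ALDH1A3 beyond counting error in the control. In the control the order went on with AKR1B1 at 30.2, ALDH1B1 at 15.9, ALDH3A2 at 10.5 and AKR1C1/AKR1C3 at 1.62, each overlapping the next. With SCS, AKR1B1 at 23.7 and ALDH3A2 at 21.9 overlapped each other, followed by ALDH1B1 at 10.6 and AKR1C1/AKR1C3 at 4.34. ALDH3A2 passed ALDH1B1 between the NCM460 libraries, and the intervals of that pair overlapped in the control but not with SCS. These FPKM carry no GC adjustment. After the GC trend was subtracted from the CPM values, the log2 fold changes with SCS were alike, at 0.25 for ALDH3A2 and 0.31 for ALDH1B1.

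**Figure D3:**
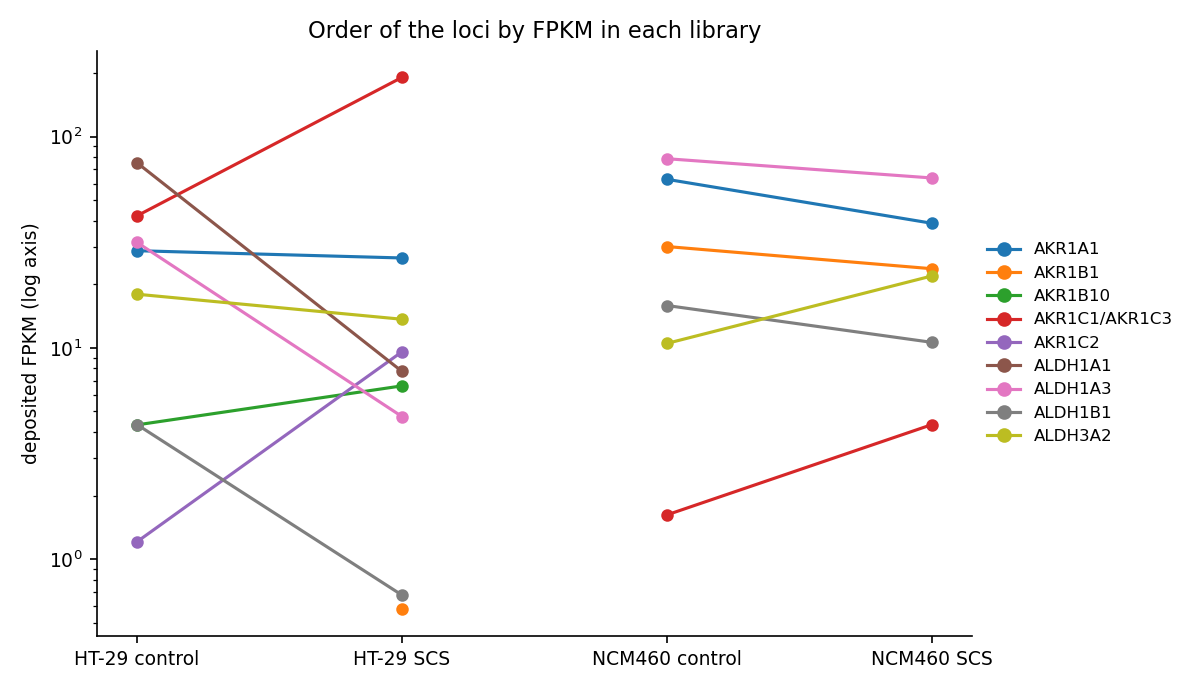
Deposited FPKM of each locus (log axis) in the 4 libraries, joined within a cell line; a locus listed at 0 is not drawn. ALDH1A1 led in the HT-29 control (75.2 FPKM) and AKR1C1/AKR1C3 with SCS (191 FPKM), whereas ALDH1A3 led in both NCM460 libraries (78.6 and 63.7 FPKM).

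The cell lines were then compared at the same treatment. In the controls 4 of 8 loci were called higher and 4 lower in HT-29, beside 25.3% and 23.1% of all 12691 loci compared. With SCS it was 4 higher and 4 lower of 9 loci, beside 24.2% and 22.4% of 13050 loci. Each library also entered a comparison of SCS with control above, so these values are not independent of those. The log2 fold changes of all loci fell with GC content here too, with a Spearman rho of -0.49 in the controls and -0.15 with SCS.

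AKR1B10, AKR1C1/AKR1C3 and ALDH1A1 were higher in HT-29 in both comparisons. ALDH1A1, with 284 and 0 fragments in the controls, was at least 36.0-fold higher in HT-29 against the floor of 3 fragments in the NCM460 library. With SCS, at 54 and 0 fragments, it was at least 8.10-fold higher. AKR1B10 was at least 2.54-fold higher without SCS (20 and 0 fragments) and at least 5.40-fold higher with SCS (36 and 0). These folds leave out counting error, with which the lower ends were 4.86 and 2.67 on the log2 scale for ALDH1A1 and 0.91 and 2.06 for AKR1B10. After the GC trend was subtracted those ends were 3.82 and 2.46 for ALDH1A1 and 0.0043 and 1.89 for AKR1B10. The AKR1B10 end in the controls was thus close to no difference.

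AKR1C1/AKR1C3 had 1 fragment in the NCM460 control, a ratio of 60.5 in favour of HT-29 with a counting interval from 10.7 to 2405. With SCS it had 3 fragments in NCM460, and the ratio was 169 (57.8 to 822). AKR1C2, with 4 and 0 fragments in the controls, was not distinguishable between the lines at this depth, and with SCS (45 and 0) it was at least 6.75-fold higher in HT-29 against the floor (2.40 on the log2 scale with counting error). The intervals of the 2 AKR1C1/AKR1C3 ratios overlapped. After the GC trend was subtracted, the lower ends of these ratios were 2.41 and 5.65 on the log2 scale.

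AKR1B1 had the opposite pattern. With 0 fragments in the HT-29 control and 30 in the NCM460 control it was at least 26.3-fold lower in HT-29 against the floor (-4.33 on the log2 scale with counting error), and with SCS (3 and 37 fragments) the ratio was 27.4 (8.68 to 139) in favour of NCM460. AKR1B1 and AKR1B10 lie close together on chromosome 7, at chr7:134442350-134459284 and chr7:134527592-134541408, and in each line 1 of the pair was at or under 3 fragments in both libraries.

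ALDH1A3 and ALDH1B1 were lower in HT-29 in both comparisons. The log2 fold change of ALDH1A3 was -1.26 (-1.79 to -0.79) between the controls and -2.86 (-3.52 to -2.43) with SCS. For ALDH1B1 it was -1.37 (-2.16 to -0.71) and -3.23 (-5.10 to -2.53). After the GC trend was subtracted the values were -0.82 and -2.77 for ALDH1A3 and -0.80 and -3.11 for ALDH1B1, all called lower. ALDH3A2 was higher in the HT-29 control at 1.56 (0.86 to 2.47). After the GC trend was subtracted this was 0.76 (0.06 to 1.66), with a lower end close to no difference, and the deposited FPKM gave 0.77. With SCS ALDH3A2 was not called at 0.41 (-0.08 to 0.95), where total counts gave 1.07 and the deposited FPKM the opposite sign, -0.68. AKR1A1 was called lower in HT-29 in both, at -0.71 (-1.27 to -0.18) and -0.65 (-1.19 to -0.15). Those AKR1A1 calls were lost after the GC trend was subtracted, and scaling by total counts alone, which moved the median of all loci to 1.04 in the controls and 0.64 with SCS, turned the values to 0.35 and 0.0049. That scaling also ended the calls of ALDH1A3 (-0.19) and ALDH1B1 (-0.32) between the controls.

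**Figure D4:**
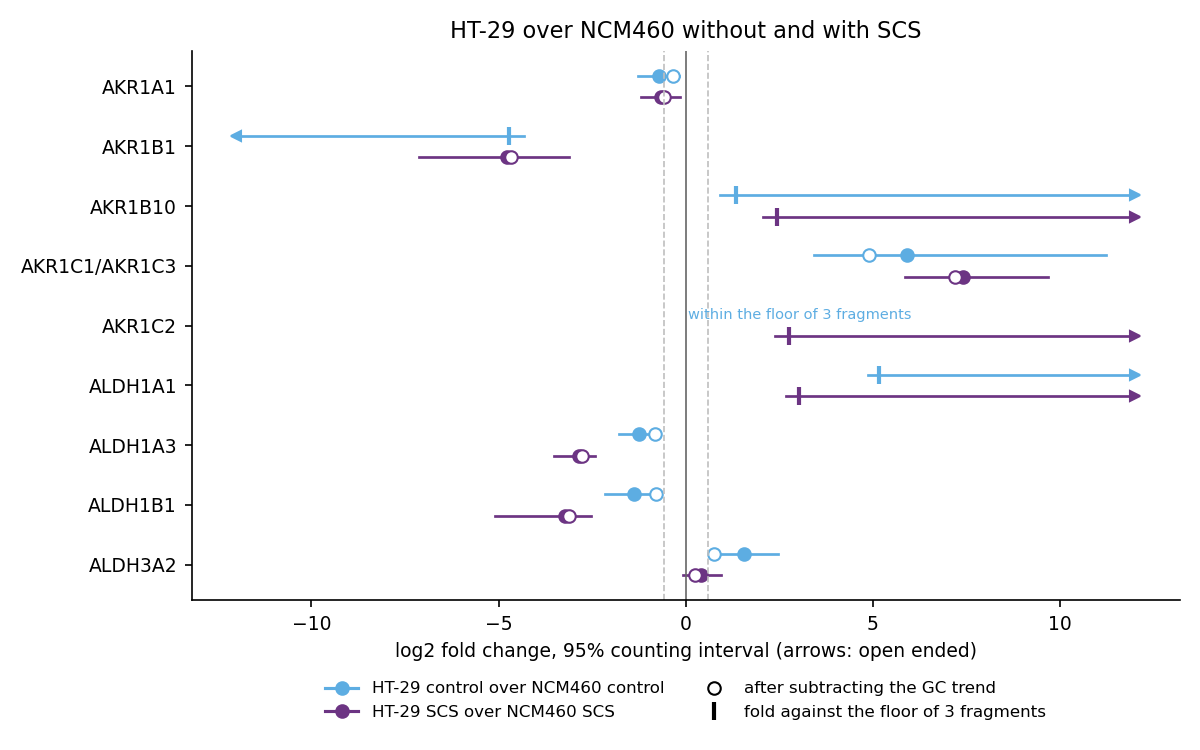
Log2 fold change of HT-29 over NCM460 for each locus, between the controls (light blue) and between the SCS libraries (purple), with 95% counting intervals. Vertical ticks with arrows are folds against the floor of 3 fragments where a library had 0, points are CPM ratios where a library had 1 to 3, open points have the GC trend subtracted, and dashed lines mark 1.5-fold. ALDH1A1, AKR1B10 and AKR1C1/AKR1C3 lay on the HT-29 side and AKR1B1, ALDH1A3 and ALDH1B1 on the NCM460 side in both.

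The other genes of both families were taken from lists that were drawn up with earlier results of these libraries known. For all lists below, the share of all loci called with SCS was 16.8% higher and 14.8% lower in HT-29. In NCM460 it was 15.4% and 13.8%, and 6.12% and 6.5% after the GC trend was subtracted. As the lists were drawn up with values known, nothing is read from their counts. Of 7 further aldo-keto reductases, 3 loci reached 1 CPM in HT-29, of which 0 were called higher and 2 lower. AKR7A2, an aflatoxin aldehyde reductase, gave 34 and 29 fragments and was not called at -0.42 (-1.23 to 0.30). The called loci were AKR7A3, with 16 and 5 fragments (-1.44), and AKR7L, with 5 and 0, both named after their values were seen. In NCM460 2 loci were compared and 0 were called, with AKR7A2 at 55 and 59 fragments (-0.36, and 0.30 with the GC trend subtracted).

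Of 15 further aldehyde dehydrogenases, 11 loci were compared in HT-29, 0 called higher and 3 lower, with a median of -0.37. ALDH7A1, which acts in lysine breakdown, was the lowest, falling from 56 to 23 fragments at -1.40 (-2.28 to -0.79). The other loci called lower were ALDH4A1, the proline pathway enzyme, at -1.32 and ALDH9A1 at -0.80, named after their values were seen, and the ALDH4A1 row was merged with other genes. The highest, ALDH2, the main acetaldehyde dehydrogenase of mitochondria, gave 50 and 86 fragments (0.53, not called), on a row merged with ACAD10. In NCM460 2 of 11 loci were called higher and 0 lower, and 1 and 0 after the GC trend was subtracted. ALDH6A1 was highest there with 5 and 20 fragments at 1.36 (0.07 to 3.30), or 1.01 and not called after the GC trend was subtracted, and ALDH3B1 lowest with 17 and 13 (-0.80, or -0.12 with GC, called in neither).

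Of 20 other genes of carbonyl and alcohol metabolism, 15 loci were compared in HT-29, 3 called higher and 2 lower, with a median of 0.01. DHRS7, a short-chain dehydrogenase, was highest at 8 and 50 fragments, or 2.09 on the log2 scale (1.32 to 3.70). SORD, which turns the sorbitol made by AKR1B1 into fructose, was lowest at 154 and 45 fragments, or -1.94 (-2.52 to -1.52). In NCM460 4 of 16 were called higher and 2 lower, and 2 and 0 after the GC trend was subtracted. GLO1, the methylglyoxal-detoxifying lyase, was highest with 18 and 109 fragments at 2.07, and 0.75 with the GC trend subtracted. HAGH, the next enzyme of that route, was lowest with 33 and 24 fragments at -0.90, and -0.25 with the GC trend subtracted.

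The retinoid list covers carriers, receptors and the enzymes around the retinal that ALDH1A1 and ALDH1A3 oxidise. Of 18 genes, 11 loci were compared in HT-29, 3 called higher and 3 lower, with a median of 0.33. RETSAT, which saturates retinol, was highest of those at 5 CPM or more, with 35 and 102 fragments at 1.25 on the log2 scale (0.74 to 1.91). CRABP2, which carries retinoic acid to its receptors, was lowest with 370 and 133 fragments at -1.69 (-2.01 to -1.42). In NCM460 1 of 11 was called higher and 6 lower with a median of -0.76, and 0 and 2 after the GC trend was subtracted with a median of -0.34. RXRA, the partner receptor, was lowest there with 46 and 17 fragments at -1.83 (-1.15 with GC), and RDH11 highest with 30 and 74 at 0.81 (0.48 with GC, not called), on a merged row.

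Of 26 NRF2 regulators and targets outside these families, 25 loci were compared in HT-29. Of these, 17 were called higher and 0 lower, beside 16.8% and 14.8% of all loci, with a median of 1.04. SLC7A11, the cystine importer, was highest with 159 and 1007 fragments at 2.41 on the log2 scale (2.19 to 2.68). NQO1, the quinone reductase, was lowest with 576 and 667 fragments at -0.02 (-0.18 to 0.14). In NCM460 6 of 26 were called higher and 4 lower with a median of -0.08, and 2 and 2 after the GC trend was subtracted. ME1, a source of the NADPH that aldo-keto reductases use, was highest with 5 and 52 fragments at 2.68 (1.46 with GC). The median over all loci was 0.07 in HT-29 and 0.03 in NCM460.

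**Figure D5:**
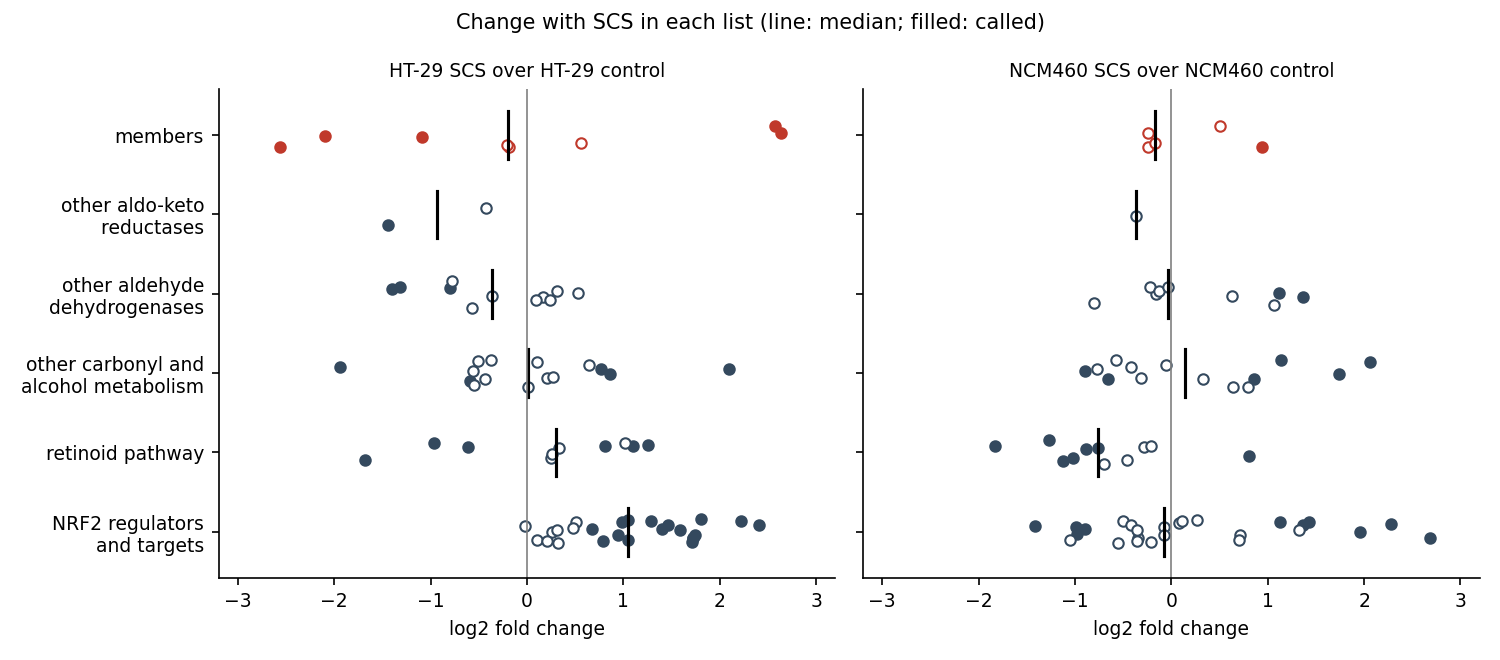
Log2 fold change of SCS over control for the members and 5 lists in HT-29 (left) and NCM460 (right); each point is a locus, filled where called, and the vertical bar is the median of the points. Loci at 0 fragments in a library or at most 3 in both are not drawn. In HT-29 17 of 25 NRF2 loci were called higher, beside 16.8% of all loci compared, while the members spread from -2.56 to 2.63.

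The loci whose pattern over the 4 libraries was most like that of the leading member of each family were found by the distance between centred log2 CPM values, among 7798 loci whose mean reached 10 CPM. Nearest to AKR1C1/AKR1C3 were AGR2, a protein disulfide isomerase of secretory cells, at a distance of 0.61, LCN2, an iron-siderophore binding protein, at 0.71, and the merged row of ZNF432 and ZNF841 at 0.96, against a median distance of 6.07. AGR2 gave 45 and 462 fragments in HT-29 without and with SCS and 0 in both NCM460 libraries, and LCN2 gave 65 and 694 and 0 in both. Nearest to ALDH1A3 were VDAC3, a mitochondrial channel, at 0.09, BLMH, a cysteine protease, at 0.26 and SOX4, a transcription factor, at 0.29, against a median of 2.59. VDAC3 gave 22 and 11 fragments in HT-29 and 22 and 41 in NCM460, without and with SCS. These likenesses rest on 4 libraries.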

How the data were processed

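RNA was extracted with TRIzol and libraries were made with a NEBNext Ultra kit. Per the labels, bcl2fastq 2.17.1.14, cutadapt 1.9.1, Bowtie2, HTSeq 0.6.1 and hg19 were used, and the paper names Cuffdiff. The coordinates of the deposited table are those of GRCh38, and the strand setting of the counting is not given in the sources used here.

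The deposited count columns hold a signal, that is fragments divided by the authors with 1 factor per library, and not whole counts. The authors' FPKM columns give fragments relative to transcript length and library size. Division by the worth of 1 fragment (0.686, 0.577, 2.04 and 1.33) gave whole numbers within 0.1 for 99.9% to 100% of values, and for 100% of those under 200 fragments. Of 64962 rows, 26 without a name, holding 0.0404% to 0.0943% of fragments, were left out. Adjacent identical rows were merged into 18650 loci, of which 1812 hold more than 1 gene.

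Fragments were scaled with TMM in edgeR 4.0.16 over all 4 libraries (factors 1.24, 1.50, 0.578 and 0.935). Log2 fold changes used a prior count of 2, with 95% Clopper-Pearson intervals from the fragments of both libraries. A locus with a mean of at least 1 CPM was called past 1.5-fold when its interval excluded 0. GC came from GENCODE release 29 (98.9% of loci; lowess span 0.3). FPKM changes used log2(FPKM + 0.1). The calls and intervals were tested on simulated Poisson counts with known changes, placed at well covered loci only. Those counts held no spread between cultures and no GC trend, so the check does not cover these. With 1 library per condition no count test could be fitted within a line, and a model of an SCS change shared by both lines was not fitted. The 10 alternatives were DESeq2 1.42.0 size factors, total counts, the authors' own scaling, no mitochondrial rows, a prior count of 0.5, GC, thinning to equal depth, FPKM, no filter beyond 1 fragment, and at least 5 CPM. The members, lists and rules were chosen with earlier results of these data known. Named were all members, the highest and lowest locus of each list whose mean reached 5 CPM, and the 3 loci nearest to the leading member of each family. Single items that this rule or the marker lists would name are not reported here where they were withheld.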

Additional observations from a re-analysis of the deposited data

Results flagged for a closer look

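The log2 fold change of ALDH1A3 with SCS had opposite signs in the lines, at -1.09 in HT-29, where it was called, and 0.51 in NCM460, where it was not. With 1 library per condition the difference between the lines was not tested. In NCM460 the deposited FPKM gave -0.30. A separate antisense row at this locus, RP11-66B24.4, gave 35 and 18 fragments in HT-29, without and with SCS, and 22 and 73 in NCM460. Since the strand setting is not given in the sources used here, reads of that row and of ALDH1A3 cannot be told apart with certainty.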

How the results depend on the processing

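Of 248 single-locus values recomputed under 8 alternatives, 225 stayed within their counting interval. Where a library had 0 fragments that interval is open on 1 side, so a value could not leave it there. All 31 values stayed with DESeq2 size factors, the authors' own scaling, no mitochondrial rows and a prior count of 0.5. With total counts only 20 of 31 stayed, and 23 of 31 in the deposited FPKM. Of all 248, 12 had the other sign (7 with total counts only, 3 after the GC trend was subtracted and 2 in FPKM), and 10 of these 12 were not called. The 2 called values that changed sign were AKR1A1 between the control lines (0.35) and between the SCS lines (0.0049), both with total counts only. The number of members called in NCM460 with SCS against control was 1, and became 2 with total counts only, 0 under the scaling of the authors, and 3 in the deposited FPKM, which carries no counting interval. Between the control lines 8 were called (4 higher, 4 lower in HT-29), and 5 with total counts only (4 higher, 1 lower). Between the SCS lines the split was 4 higher and 4 lower, and 5 and 3 with total counts only. In HT-29 with SCS against control 4 to 6 members were called, and AKR1B10 was called with total counts only and with FPKM. AKR1C1/AKR1C3 (2.18 to 2.85), AKR1C2 (2.31 to 3.07), ALDH1A1 (-3.27 to -2.27) and ALDH1A3 (-2.71 to -0.84) were called in HT-29 under all 8. The causes of these moves were not tested. No paired analysis was possible because the labels give no replicate numbers and no result here comes from a test, and a model of line and treatment over the 4 libraries was not fitted. Depth limits the NCM460 values most, where 3 fragments stand for 3.85 and 2.77 CPM.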
